A study of Homo sapiens with 16 samples.

Results

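The inflammatory cancer-associated fibroblasts are the cells to which the authors gave the cluster name i_CAF in mouse mammary tumors. They were taken by that name alone. The authors had themselves named clusters from marker genes, and expression of Dcn or Acta2 placed cells among fibroblasts. The presence of Dcn or Acta2 was thus fixed by the naming, and both are given below as a description. Counting each barcode once where long-term pools shared it, 1112 of 48824 cells were i_CAF: 726 of 25723 in the long-term experiment, 291 of 15094 in the short-term experiment with LPA1-T22 (T22) tumors and 95 of 8007 in the short-term experiment with LPA1-T127 (T127) tumors. T22 and T127 are syngeneic transplant lines, and chunks of 25 mm3 were placed in the mammary fat pad of female FVB mice aged 6 weeks. Per the labels, mice were randomized to treatment 14 days (T22) or 10 days (T127) after transplantation, and were given vehicle or daily olaparib by mouth, an inhibitor of the DNA repair enzyme PARP, at 50 mg/kg. Short-term tumors of a single strain were treated for 4 or 8 days and sequenced in 4 pools per strain. Long-term tumors were treated for 20 days and sequenced in 8 pools, which mix T22 and T127 grown alone with tumors of mice that carried T22 in the opposite fat pad from 14 days before T127. Each pool mixes vehicle and olaparib tumors, and no file used here ties a cell to its tumor. Treatment and transplant setting were therefore not compared, each group of pools stands as 1 sample, and no test between groups or clusters was run.

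Cancer-associated fibroblasts are the mesenchymal cells of the tumor stroma. Myofibroblastic ones, after which the authors named the cluster my_CAF, contract, carry smooth muscle proteins and are known for laying down matrix. Inflammatory ones are known for secreting chemokines, cytokines, complement and growth factors that act on myeloid and tumor cells. Pericytes, which wrap small vessels, share many contractile genes with myofibroblasts, and my_CAF carried pericyte markers at high levels, as given below. Resident fibroblasts of connective tissue that carry Pi16, Dpp4, Cd34 and Ly6a lie around vessels and are regarded as precursors of other fibroblasts.

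A level below is the sum of a gene's unique molecular identifiers (UMIs) over the cells of a cluster, per 1000000 UMIs of that cluster (CPM). Ratios of levels carry a 95% counting interval, which covers counting error only, so the spread is given over pools. Pools mix tumors and cells are not tied to them, so that spread does not measure variation between tumors or mice. The i_CAF cells held 10591927 UMIs in the long-term group, 7094886 in T22 and 1926813 in T127, with a median of 14498, 25169 and 21359 UMIs per cell. Long-term pools 1 and 2 shared 3939 cell barcodes and each shared 987 or 1082 with pool 3, against 1 to 8 in the other pairs. Of 980 deposited long-term i_CAF cells, 254 were the shallower copy of a shared barcode and were left out. Of 200 shared barcodes with an i_CAF copy, 196 were named i_CAF in every copy. Pools 1, 2 and 3 are therefore not independent of one another, though they count as separate pools below. The 8 long-term pools also fell into 2 sets that no label tells apart, pools 1 to 4 and pools 5 to 8. In i_CAF, Ctla2a, a protease inhibitor gene, lay at 1198 to 3228 CPM in pools 1 to 4 and at 13936 to 18202 in pools 5 to 8. Cxcl14, a chemokine gene, lay at 1293 to 1864 and 389 to 463, and Spp1, which encodes osteopontin, at 3179 to 4361 and 623 to 1624. The sets also differed outside i_CAF, since the malignant cluster Malign_1 made up 9.67 to 10.95% of cells in pools 1 to 4 and 3.32 to 4.61% in pools 5 to 8. Whether a batch or another mixture of tumors goes with them cannot be told apart.

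The i_CAF cells were 2.82% (exact 95% interval 2.62 to 3.03) of long-term cells, 1.93% (1.71 to 2.16) of T22 cells and 1.19% (0.961 to 1.45) of T127 cells. Over pools the share ran from 2.40 to 3.32% in the long-term group, from 1.80 to 2.12% in T22 and from 0.913 to 1.35% in T127. Over all cells the 3 ranges did not overlap, but malignant cells made up much of the T127 pools. Over non-malignant cells alone the order was another one, with 3.85% in the long-term group, 2.21% in T22 and 3.04% in T127. Over pools this share ran from 3.36 to 4.45% in the long-term group, from 2.09 to 2.43% in T22 and from 2.25 to 3.48% in T127. The T127 range thus overlapped with both others. Of all cells named i_CAF or my_CAF, i_CAF were 86.1%, 69.3% and 92.2%, as there were 117, 129 and 8 my_CAF cells.

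**Figure D1:**
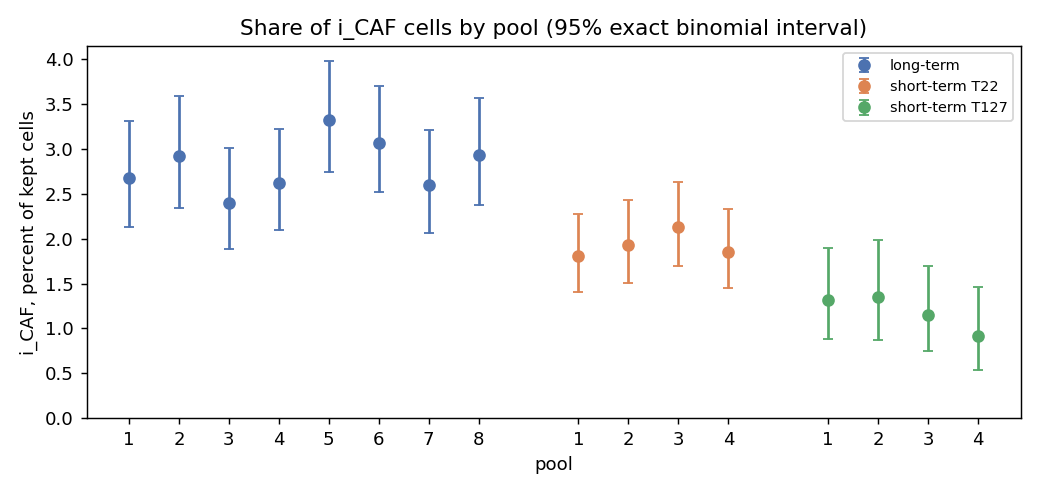
Share of i_CAF among all cells of each pool (percent, vertical axis) for the 8 long-term, 4 short-term T22 and 4 short-term T127 pools, each point 1 pool with its exact 95% binomial interval. The long-term pools lie between 2.40 and 3.32%, the T22 pools between 1.80 and 2.12% and the T127 pools between 0.913 and 1.35%.

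The 4 markers of the label were present in i_CAF of every pool. Dcn, which encodes the collagen-binding proteoglycan decorin, was at 6544 CPM in the long-term group (pools 5243 to 7519, median 6448). Its level was 4413, 4153, 4191 and 4348 CPM in the 4 T22 pools and 5911, 5460, 5105 and 6175 in the 4 T127 pools. Pdgfra, the receptor for PDGF that marks interstitial fibroblasts, was at 323 (245 to 376), 309 (282 to 333) and 429.7 CPM (387 to 500) in the 3 groups. Pdpn, which encodes the membrane glycoprotein podoplanin, was at 251 (200.2 to 285), 135 (124 to 163) and 157 CPM (134 to 184). Col1a1, a chain of type I collagen, was at 5517 (4380 to 6521), 13273 (11116 to 14659) and 17726 CPM (14753 to 19650).

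The markers did not all set i_CAF apart from other clusters. Col1a1 reached at most 30.4 CPM in any cluster other than the CAF clusters. Dcn, by contrast, was at 4305 and 4324 CPM in the malignant clusters Malign_0 and Malign_1 of the long-term group and at 2579 and 3674 CPM in those of T127. Pdgfra was at 309 and 279 CPM in the T127 malignant clusters Malign_0 and Malign_1. Pdpn was at 219 CPM in the T22 malignant cluster Malign_2, above the 135 CPM of T22 i_CAF. Thinned to 3000 UMIs, which kept 658 of 726, 282 of 291 and 85 of 95 i_CAF cells, 99.7%, 98.2% and 96.5% of them held a Dcn UMI, against 12.3%, 4.02% and 13.7% of NK cells, which should lack the gene. A Pdgfra UMI was held by 55.2%, 52.1% and 62.4% of thinned i_CAF cells, against at most 1.59% of NK cells. Without thinning, 98.8%, 97.6% and 97.9% of i_CAF cells held a Dcn UMI.

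**Figure D2:**
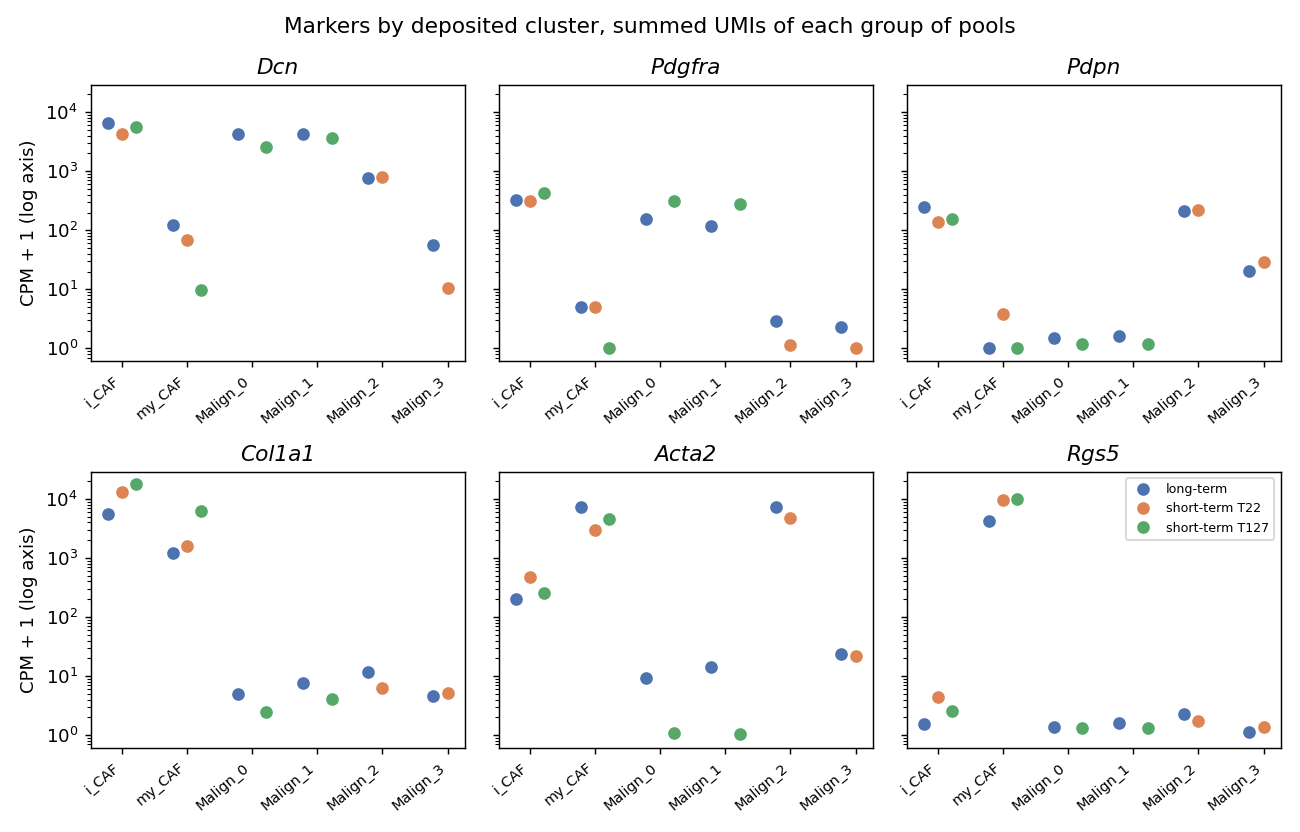
Level of the markers Dcn, Pdgfra, Pdpn and Col1a1 and of the contractile and pericyte genes Acta2 and Rgs5 in i_CAF, my_CAF and the 4 malignant clusters (CPM plus 1, log axis), each point the summed UMIs of 1 cluster in 1 group of pools. Col1a1 was highest in i_CAF and present in my_CAF, Dcn and Pdgfra were also present in Malign_0 and Malign_1, and of these clusters Rgs5 was high in my_CAF, which for T127 rests on 8 cells. In T22, Dcn was also present in Malign_2, and Acta2 was higher there than in i_CAF.

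Marker genes of other cell types were low in i_CAF but not absent. The 12 pericyte genes summed to 271, 331 and 145 CPM in the 3 groups, which is 2.26%, 1.92% and 0.881% of their sum in my_CAF. The 12 endothelial genes summed to 90.6, 180.3 and 43.6 CPM, and the 12 epithelial genes to 92.2, 44.1 and 30.1 CPM. The 12 macrophage genes summed to 1812 CPM in the long-term group (pools 1130 to 2490), 419 in T22 (140.3 to 1061) and 1314 in T127 (29.9 to 3763). They were concentrated in 40 cells, described below as a sub-cluster led by macrophage genes. Without it, the macrophage gene Lyz2 was at 56.0 instead of 263 CPM in the long-term group and at 16.9 instead of 658 CPM in T127. Lyz2, C1qa, Ccl4 and H2-Aa are leading genes of that sub-cluster, so their fall without it was fixed in advance.

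Transcripts of interstitial matrix were among the most abundant of i_CAF. In the long-term group Malat1, a nuclear RNA, came first at 23303 CPM, followed by Sparc at 13415 CPM, Col3a1 at 12802, Ctla2a at 10469 and the iron storage gene Fth1 at 9522, and Col1a1 ranked 10 at 5517 CPM. In T22 the highest matrix genes were Col3a1 at 19903 CPM, Col1a2 at 15411, Sparc at 14653, Mgp at 13614 and Col1a1 at 13273, beside Malat1 at 27951 CPM. Col3a1 encodes type III collagen, Col1a2 the partner chain of Col1a1, Sparc a collagen-binding glycoprotein and Mgp matrix Gla protein, an inhibitor of calcification. In T127 the first 4 were Col3a1 at 24513 CPM, Col1a1 at 17726, Col1a2 at 17037 and Sparc at 13672.

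Against my_CAF, i_CAF carried more interstitial matrix, more secreted inflammatory genes and far fewer contractile and pericyte transcripts. Because both names come from one clustering of these cells, the differences describe the clusters and are no test. Genes at 20 CPM or more in either cluster were compared on log2(CPM + 1), and those past a 2-fold difference were counted. In the long-term group 865 of 6457 genes (13.4%) were higher and 888 (13.8%) lower in i_CAF, with a median log2 ratio over all genes of -0.21. In T22 767 of 7002 genes (11.0%) were higher and 776 (11.1%) lower, with a median of -0.15. In T127, where my_CAF was 8 cells and no pool held 10, the counts were 1350 of 6808 (19.8%) and 1183 (17.4%). Pools are compared below where both clusters held at least 10 cells, which left 6 long-term and 4 T22 pools. The i_CAF cells were also deeper, with 14498 against 5926 UMIs per cell in the long-term group and 25169 against 12037 in T22.

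Among matrix genes, proteoglycan and elastic fibre genes stood out. Of the 21 on that list, 20 were compared in the long-term group, with 18 higher, 1 lower and a median log2 ratio of 4.13, and all 21 in T22, with 19 higher and 1 lower (3.61). Lum, which encodes lumican, a regulator of collagen fibril assembly, was at 1059 against 10.8 CPM in the long-term group and at 1966 against 14.7 CPM in T22. The i_CAF pools lay at 874 to 1232 CPM (long-term) and 1771 to 2160 (T22), and the my_CAF pools at 0 to 34.1 and 7.48 to 22.1, so that the clusters did not overlap. Mfap5, a microfibril protein gene, was 208-fold (122 to 391) and 284-fold (189 to 448) higher. Dcn was 52.8-fold (43.1 to 65.5) and 63.1-fold (52.8 to 76.2) higher. Fn1, which encodes fibronectin, was 19.4-fold (17.0 to 22.3) and 9.81-fold (9.07 to 10.6) higher. Leaving out 1 pool moved some of these differences by over 1.5 times, in each case upward. The long-term log2 ratio went from 6.49 to 7.14 for Lum without pool 1 (and nearly as far without pool 3), from 7.62 to 9.38 for Mfap5 without pool 4, and from 5.71 to 6.88 for Dcn without pool 1. In T22 that of Mfap5 went from 8.04 to 8.86 without pool 2.

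Collagen genes did not all follow. Of the 17 collagens listed, 9 were higher and 4 lower in the long-term group (median 1.24), and 11 were higher and 1 lower in T22 (1.49). Col1a1 was 4.57-fold (4.27 to 4.88) and 8.21-fold (7.91 to 8.53) higher in i_CAF, and Col3a1 4.96-fold and 5.42-fold. Col4a1, a chain of the type IV collagen of basement membranes, was lower in i_CAF in the long-term group, at 807 against 3702 CPM. In T22 it was at 5501 against 9288 CPM, lower but within 2-fold. Postn, which encodes periostin and is often used as a myofibroblast marker, was higher in i_CAF at 1680.3 against 874 CPM and 2840.4 against 887, and passed 2-fold in 3 of 6 long-term pools and 4 of 4 T22 pools. Other genes of the myofibroblastic list also had their higher level in i_CAF. Cthrc1, a collagen triple helix repeat protein gene, was at 897 CPM against no UMI in long-term my_CAF (at least 222-fold) and at 230.2 CPM against no UMI in T22 (at least 136-fold). Lrrc15 was at 51.6 and 139 CPM in i_CAF, also against no UMI in my_CAF of either group.

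Matrix enzymes and their inhibitors were mostly higher in i_CAF, with 13 higher and 2 lower of the 24 compared (25 listed) in the long-term group and 13 higher and 1 lower of 23 in T22. Lox, the enzyme that cross-links collagen and elastin, was 96.6-fold (49.0 to 224) and 59.4-fold (39.9 to 92.7) higher. Mmp3, a matrix metalloproteinase gene, was at 438 CPM against no UMI (at least 108-fold) in the long-term group and at 214 against 1.13 CPM in T22. Timp1, an inhibitor of such enzymes, was 7.95-fold (7.01 to 9.06) and 4.43-fold (4.05 to 4.86) higher.

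Of the 21 chemokine ligands listed, 16 were compared in the long-term group, with 14 higher and none lower in i_CAF (median log2 ratio 3.25), and 11 in T22, with 7 higher and 1 lower (1.62). Macrophage genes moved with the long-term count, with 8 of 9 compared (12 listed) higher, none lower and sums of 1812 CPM in i_CAF and 547 in my_CAF. In T22, 1 of 7 was higher and 1 lower, with sums of 419 and 387 CPM. Their part in the chemokine counts was not tested, but Ccl4, a macrophage chemokine gene, was at 10.4 instead of 78.8 CPM in long-term i_CAF without the sub-cluster led by macrophage genes. Ccl7, which recruits monocytes, was at 1260 against 26.9 CPM in the long-term group, 46.8-fold (30.3 to 76.6), with i_CAF pools at 879 to 1652 and my_CAF pools at 9.46 to 61.5 CPM. In T22 it was at 192, 399.8, 317 and 316 CPM in the i_CAF pools, all above the my_CAF pools, which lay at 14.7 to 69.2. Ccl2, its close relative, was 9.14-fold (7.37 to 11.5) and 2.66-fold (2.44 to 2.89) higher. Cxcl14 was 23.4-fold (16.3 to 35.0) and 52.1-fold (38.1 to 73.3) higher. These sizes rested in part on single pools. The log2 ratio of Ccl2 in T22 was 1.41, and 2.77 without pool 2. That of Cxcl14 was 4.51 in the long-term group and 6.54 without pool 3, and 5.64 in T22 and 6.33 without pool 3. Cxcl1, which recruits neutrophils, was at 1038 against 259 CPM and 604 against 327 CPM, past 2-fold in 5 of 6 long-term pools but only 1 of 4 T22 pools.

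Il6, the cytokine by which inflammatory fibroblasts are often defined, did not behave alike in both groups. It was at 70.9 against 13.5 CPM in the long-term group, where i_CAF was higher in 6 of 6 pools. In T22 it was at 42.8 CPM in i_CAF and 99.8 CPM in my_CAF, with i_CAF higher in 1 of 4 pools. The T22 i_CAF pools lay at 33.0, 66.0, 39.6 and 33.6 CPM, inside the my_CAF range of 9.83 to 225 CPM. Few i_CAF cells held most Il6 UMIs, with 59.9% in 37 of 726 long-term cells and 85.9% in 15 of 291 T22 cells. Cxcl10, an interferon-induced chemokine gene, went the same way, at 157 against 14.8 CPM in the long-term group (higher in 6 of 6 pools) and 25.9 against 97.6 CPM in T22 (higher in 1 of 4). Without T22 pool 3 the log2 ratio of Il6 in T22 was -0.38 instead of -1.20. That of Cxcl10 in T22 was -1.87 over all pools, -2.50 without pool 1 and -1.08 without pool 2, and in the long-term group it was 3.32, and 4.14 without pool 3. The difference between the groups was not tested for either gene.

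Among other secreted genes, 11 of 21 growth factors compared (27 listed) were higher and 6 lower in long-term i_CAF, and 13 of 20 were higher and 2 lower in T22. C3, the central complement component, was at 438 against 2.69 CPM in the long-term group and 163 against 2.26 CPM in T22. C4b, the complement component next to it in the classical pathway, was at 786 against 1.35 and 126.8 against 4.51 CPM. Over the 19 complement genes listed, 9 of 12 compared were higher and 1 lower in the long-term group, and 5 of 11 higher and 1 lower in T22. The macrophage sums just given, 1812 against 547 CPM in the long-term group, moved with that count too. C1qa, which macrophages make, was at 282 CPM in long-term i_CAF against 72.7 in my_CAF, but at 53.8 CPM in i_CAF without the sub-cluster led by macrophage genes. Il33, an alarmin released from damaged cells, was at 345 against 2.69 CPM and 145 against 3.39 CPM. Igf1, the insulin-like growth factor gene, was 65.9-fold (28.2 to 203) and 16.3-fold (11.2 to 24.9) higher. Has1, a hyaluronan synthase gene, was at 532 against 6.74 CPM and 231 against 0.564 CPM. Csf1, the growth factor of macrophages, was 7.09-fold (4.53 to 11.8) and 4.80-fold (3.85 to 6.05) higher. Il34, the other ligand of the Csf1 receptor, was lower in i_CAF in the long-term group, at 46.1 against 300.4 CPM. In T22 Il34 was at 108 against 183 CPM, lower but within 2-fold. The TGF-beta gene Tgfb3 was also lower in long-term i_CAF, at 24.4 against 104 CPM, and lower but within 2-fold in T22, at 65.1 against 122 CPM. Leaving out 1 pool raised some of the log2 ratios of these secreted genes by over 1.5 times in fold. Without long-term pool 5, C4b went from 8.39 to 9.58 and Il33 from 6.55 to 7.21, and without long-term pool 3 Has1 went from 6.11 to 6.99. In T22, Igf1 went from 3.94 to 4.64 without pool 2 and Has1 from 7.21 to 7.92 without pool 4.

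Of the 23 Wnt, BMP and hedgehog signal genes listed, 12 were compared in the long-term group, with 10 higher and 1 lower in i_CAF, and 11 in T22, with 8 higher and none lower. Sfrp2, a secreted Wnt modulator gene, was at 744 and 171 CPM against no UMI in my_CAF, at least 184-fold and 101-fold higher. Wnt2, a Wnt ligand gene, was at 85.0 and 70.2 CPM, also against no UMI. Wnt5a was lower but within 2-fold in both groups, at 34.7 against 70.0 CPM and 103 against 158 CPM.

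Of the 14 resident fibroblast genes listed, 13 were compared in each group, and 11 and 12 of them were higher and none lower, with a median log2 ratio of 6.54 in the long-term group and 5.77 in T22. Pi16 was at 814 CPM in long-term i_CAF (pools 518 to 961) against no UMI in my_CAF (at least 201-fold), and at 224, 353, 274 and 214 CPM in the T22 pools against 0 to 2.22 CPM. Cd34 was at 421 CPM against no UMI and at 200.1 against 0.564 CPM. Clec3b, which encodes tetranectin, was 267-fold (114 to 821) and 67.3-fold (37.5 to 135) higher. The long-term log2 ratio of Clec3b was 7.86, and 10.85 without pool 4, and the T22 ratio of Cd34 was 7.01, and 7.65 without pool 1.

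Receptors were more often higher than lower in i_CAF, and transcription factors went both ways. Over all genes compared, 13.4% were higher and 13.8% lower in the long-term group, and 11.0% and 11.1% in T22. Of 28 receptor genes 27 were compared in the long-term group, with 13 higher and 5 lower, and 24 in T22, with 11 higher and 3 lower. Tgfbr2, the type II TGF-beta receptor gene, was 13.3-fold (9.67 to 18.8) and 4.86-fold (4.15 to 5.73) higher in i_CAF, and Fgfr1, a fibroblast growth factor receptor gene, 19.9-fold (10.1 to 46.2) and 20.4-fold (12.5 to 35.8). Lpar1, which encodes the lysophosphatidic acid receptor LPA1, was at 168 against 25.6 CPM and 194 against 40.6 CPM. Pdgfrb, the PDGF receptor gene of pericytes, was lower at 100.5 against 656 CPM and 509 against 1313 CPM. Of 31 transcription factor genes 25 were compared in the long-term group, with 6 higher and 8 lower, and 24 in T22, with 5 higher and 6 lower. Klf4 was 17.1-fold (11.6 to 26.2) and 12.4-fold (9.88 to 15.8) higher, and Osr1 40.4-fold (13.8 to 196) and 54.9-fold (27.8 to 127.4). The long-term log2 ratio of Klf4 was 4.06, and 4.71 without pool 6. Prrx1 and Twist1, general mesenchymal factors, stayed within 2-fold in both groups. Ebf1 was lower at 578 against 1328 CPM and 728 against 1468 CPM.

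The contractile and pericyte genes were lower in i_CAF. Acta2, like Dcn, was used to assign cells to fibroblasts, so its difference is not free of the naming. Acta2, which encodes smooth muscle actin, was at 198 against 7437 CPM in the long-term group, 37.5-fold lower (35.6 to 39.4), with i_CAF pools at 89.6 to 425 and my_CAF pools at 4345 to 10500 CPM. In T22 it was at 462, 473, 619 and 363 CPM in i_CAF against 2056 to 4335 CPM, 6.24-fold lower (5.97 to 6.51). All 12 pericyte genes were lower in both groups, with median log2 ratios of -5.59 and -4.89. Rgs5, a regulator of G protein signalling that marks pericytes, was at 0.567 against 4203 CPM and 3.38 against 9746 CPM. Notch3, the Notch receptor of mural cells, was at 6.61 against 404 CPM and 66.4 against 684 CPM. The cluster named my_CAF thus carried the pericyte markers at high levels beside Acta2, and the 17 genes of the myofibroblastic list divided, with 4 higher and 10 lower in long-term i_CAF and 5 higher and 8 lower of 15 compared in T22. Of the 12 cell cycle genes 10 and 11 were compared, of which 10 and 8 were lower and none higher. Mki67, a marker of cycling cells, was at 59.2 against 341 CPM in T22 and lower in 4 of 4 pools, but in the long-term group, at 23.2 against 71.4 CPM, i_CAF was higher in 2 of 6 pools. Its long-term log2 ratio was -1.58, and -0.90 without pool 6. The 25-gene lists that the study drew for the clusters on these same samples are no independent evidence: of the i_CAF list 13 and 17 genes were higher in i_CAF, and of the my_CAF list 16 and 11 were lower.

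**Figure D3:**
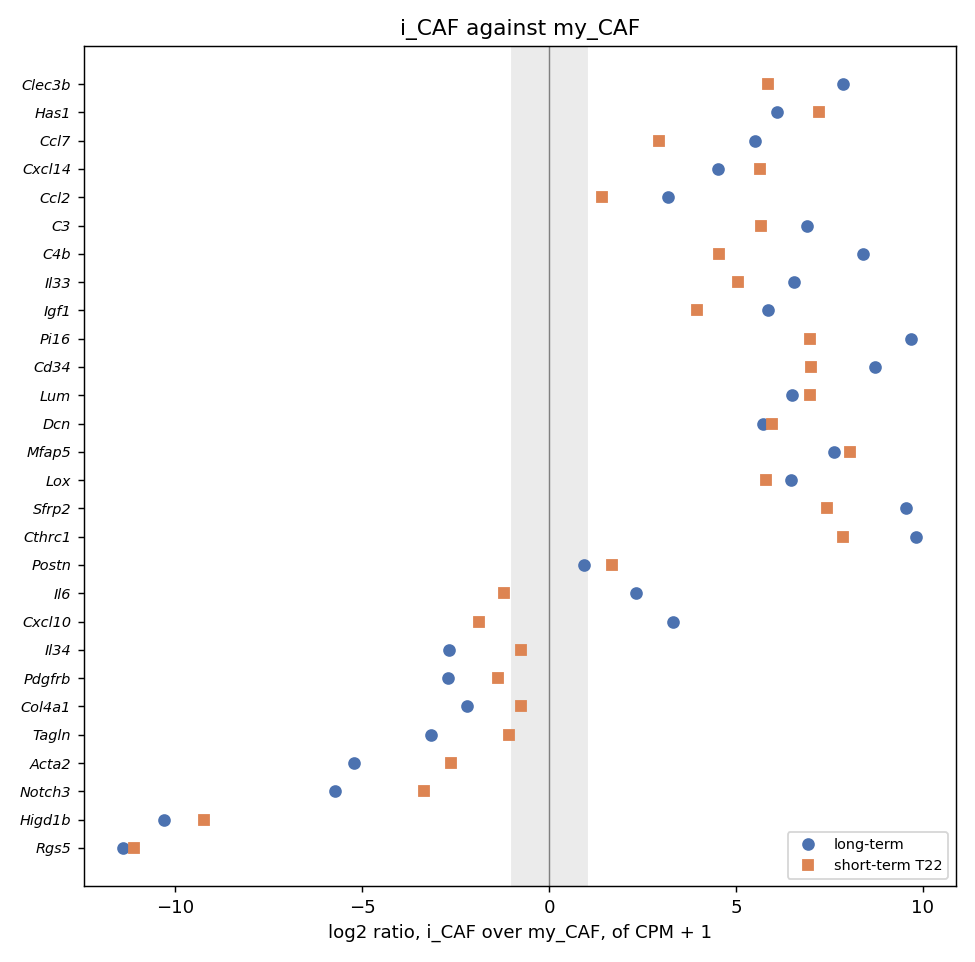
Log2 ratio of CPM + 1 of i_CAF over my_CAF for named genes (rows), with circles for the long-term group, squares for short-term T22 and a grey band for differences within 2-fold. Most matrix, secreted and resident fibroblast genes lie to the right, where i_CAF was higher, while Rgs5, Higd1b, Notch3, Acta2, Col4a1 and Il34 lie to the left. Inside the grey band lie Col4a1 and Il34 in T22 and Postn in the long-term group. Il6 and Cxcl10 lie right in the long-term group and left in T22.

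Against the malignant clusters, i_CAF differed by collagens and secreted genes in both tumor lines, but the markers shared with malignant cells were not the same. In T22, 1522 of 7315 genes (20.8%) were higher and 1437 (19.6%) lower than in Malign_2, and 1639 of 7499 (21.9%) higher and 1643 (21.9%) lower than in Malign_3. In T127, 1088 of 7220 genes (15.1%) were higher and 1571 (21.8%) lower than in Malign_0, and 1055 of 7084 (14.9%) higher and 1402 (19.8%) lower than in Malign_1. The median log2 ratio against Malign_0 was -0.34, and with ratios centred on it the lower genes were 1004.

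In T22, 15 of 17 collagens, 19 of 21 proteoglycan and elastic fibre genes and 14 of the 16 inflammatory CAF genes compared (22 listed) were higher than in Malign_2. Col1a1 was at 13273 against 5.41 CPM in Malign_2 and 4.20 in Malign_3, and Fn1 at 3596 against 1.40 and 9.16 CPM. Malign_2 and Malign_3 differed in what they shared with i_CAF. Dcn was 5.43-fold (5.35 to 5.51) above Malign_2 but 439-fold (334 to 590) above Malign_3. Acta2 was 9.73-fold (9.40 to 10.1) lower in i_CAF than in Malign_2, at 482 against 4685 CPM, but 22.7-fold (18.8 to 27.7) higher than in Malign_3. Ptn, which encodes the growth factor pleiotrophin, and Sfrp1, a Wnt antagonist gene, were at 95.4 and 193 CPM in i_CAF against 2182 and 2308 CPM in Malign_2. Serpinf1, which encodes an inhibitor of vessel growth, was at 1291 CPM in i_CAF and 751 in Malign_2, within 2-fold, but at 8.58 CPM in Malign_3. All 11 epithelial genes compared were lower than in Malign_2, among them Krt14, a basal keratin gene, at 15.2 against 2081 CPM and Epcam, an epithelial adhesion gene, at 6.34 against 749 CPM. Single pools moved several of these log2 ratios. Against Malign_3, Fn1 went from 8.47 to 10.04 and Serpinf1 from 7.08 to 7.68 without pool 1, and Dcn from 8.64 to 9.36 without pool 2. Against Malign_2, Epcam went from -6.67 to -7.27 without pool 3.

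In T127 the malignant cells themselves carried mesenchymal transcripts. The list of fibroblast transcription factors was still more often higher than lower in i_CAF. Of 22 compared (31 listed), 10 were higher and 2 lower in i_CAF than in Malign_0, and 7 were higher and 1 lower than in Malign_1. Over all genes 15.1% were higher and 21.8% lower than in Malign_0, and 14.9% and 19.8% than in Malign_1. Single genes lay closer to the malignant clusters. Dcn was 2.19-fold (2.15 to 2.23) above Malign_0 and 1.54-fold (1.51 to 1.57) above Malign_1, and Pdgfra 1.39-fold (1.30 to 1.49) and 1.54-fold (1.44 to 1.65). Prrx1 was at 568 CPM in i_CAF against 526 and 483 CPM, and Twist1 at 239 against 222 and 217 CPM, each higher in i_CAF in 3 of 4 pools. Osr1 was lower in i_CAF, at 81.0 against 245 and 163 CPM. Fn1 was at 6045 against 3947 and 5141 CPM. Vim, the mesenchymal filament gene, was lower in i_CAF at 4446 against 13659 and 12296 CPM, and so was S100a4, often used as a fibroblast marker, at 813 against 11334 and 8374 CPM. Collagens separated i_CAF from these cells, with Col1a1 at 17726 against 1.51 and 3.07 CPM, and so did Lum at 1579 against 0.106 and 0.220 CPM and Cxcl14 at 1617 against 0.138 and 0.134 CPM.

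More genes of the inflammatory CAF list passed 2-fold in T127 i_CAF over Malign_0 than over Malign_1, a difference that was not tested. All 19 inflammatory CAF genes compared (of 22 listed) were higher than in Malign_0, and 15 of 19 than in Malign_1. Cxcl1 was 28.9-fold (27.7 to 30.2) above Malign_0 but 1.63-fold (1.57 to 1.69) above Malign_1. Fos, an immediate early gene that also responds to dissociation, was at 2383 CPM in i_CAF against 169 CPM in Malign_0 and 3074 in Malign_1. C3 was at 488 CPM against 1.03 and 2.42 CPM, and Igf1 at 663 against 0.0744 and 0.0978 CPM. Ccnd1, which encodes cyclin D1, Hmga2, a chromatin protein gene, and Krt8 were at 25.9, 35.3 and 8.30 CPM in i_CAF against 2584, 2385 and 1412 CPM in Malign_0.

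Between the tumor lines of the short-term experiment, i_CAF of T22 had higher levels of Col4a1, Eln and Mgp, and i_CAF of T127 of Spp1, Sfrp2, Tnc and several chemokine and complement genes. Of 6576 genes, 508 (7.73%) were higher in T22 and 392 (5.96%) higher in T127 by over 2-fold. The lines were run as separate pools, so the line and the library cannot be told apart, nor can more cells of one kind within i_CAF be told apart from more RNA per cell. The 291 T22 and 95 T127 cells also divided differently over the sub-clusters described below. That is no separate result, because genes that differ between the groups also define the sub-clusters.

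Col4a1 was at 4994, 6130.4, 5011 and 5898 CPM in the T22 pools and at 460.2, 372, 586 and 363 CPM in the T127 pools. The pools were far apart, and the ratio of sums was 12.2-fold (11.4 to 13.1). In endothelial cells, which also make type IV collagen, Col4a1 was at 7284 CPM in T22 and 6771 in T127, and in my_CAF at 9288 and 7283 CPM. Eln, which encodes elastin, was at 2304, 2081, 2071 and 2576 CPM against 269.8, 171, 105 and 236 CPM, 11.7-fold (10.5 to 13.0). Col11a1 was 19.0-fold (16.1 to 22.6) higher and Mgp 5.71-fold (5.55 to 5.89). Tnmd, which encodes the tendon membrane protein tenomodulin, was at 346 against 1.04 CPM. Igfbp2, an insulin-like growth factor binding protein gene, was at 492 against 3.63 CPM, and Ramp1, a subunit of the CGRP receptor, at 202 against 2.08 CPM. The log2 ratios of these last 3 genes depended on single T127 pools. Tnmd went from 7.41 to 8.44 and Ramp1 from 6.04 to 6.89 without T127 pool 3, and Igfbp2 from 6.73 to 8.21 without T127 pool 4. Over the 17 collagens 6 were higher in T22 and 1 in T127, while Col1a1 and Col3a1 were 1.34-fold (1.32 to 1.35) and 1.23-fold (1.22 to 1.24) higher in T127.

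Of 16 chemokines compared (21 listed) 9 were higher in T127 and 1 in T22, with a median log2 ratio of T22 to T127 of -1.43, against 0.04 over all genes. Of 12 complement genes compared (19 listed) 7 were higher in T127 and 0 in T22 (-1.38), and of 11 interferon-stimulated genes (15 listed) 6 and 1 (-1.70). The macrophage genes summed to 1314 CPM in T127 i_CAF and 419 in T22, as given above. Without the sub-cluster led by macrophage genes the order of the complement gene C1qa turned. It went from 79.1 CPM in T22 and 239 in T127 to 20.9 and 9.59 CPM. That turn rests on few cells, since the sub-cluster held 5 T22 and 4 T127 cells. In T127 i_CAF a single cell held 240 of 460 C1qa UMIs. Without that sub-cluster C4b stayed higher in T127, at 591 against 129 CPM, and so did Ccl7, at 1044 against 313 CPM. Ccl7 was at 1020 CPM in T127 (pools 1019.6, 1416, 691 and 991) against 307 in T22, 3.32-fold (3.12 to 3.53), and C4b 4.52-fold (4.14 to 4.94). Macrophages differed in the same direction for Ccl7, with 764 CPM in T127 and 121 in T22 Macro-M2 cells. Cxcl9, an interferon-induced chemokine gene, was the exception, at 347 CPM in T22 against 116 in T127, higher in 13 of 16 pairs of pools. Without the sub-cluster led by macrophage genes it was at 354 against 33.8 CPM, and its log2 ratio over all cells was 1.57, and 3.31 without T127 pool 4. Il6 and Cxcl10 did not separate the lines, since the 4 T127 pools ranged from 47.9 to 257 CPM for Il6 and from 14.97 to 173 CPM for Cxcl10 and overlapped with those of T22.

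Sfrp2 was at 1664, 1578, 2679 and 2310.1 CPM in the T127 pools against 214, 207, 70.9 and 204 CPM in the T22 pools, 12.1-fold (11.3 to 12.9). Tnc, which encodes the matrix protein tenascin C of wounds and tumors, was at 1959.8, 1183, 1292.5 and 1603 CPM against 134, 215, 174 and 63.9 CPM, 10.3-fold (9.61 to 11.1). Both sets of pools lay far apart. Of the 13 Wnt, BMP and hedgehog signal genes compared (23 listed), 6 were higher in T127 and 4 in T22, and of the 21 proteoglycan and elastic fibre genes 3 and 4. Ptn was 11.05-fold (10.1 to 12.1) higher in T127 and Sfrp1 8.05-fold (7.55 to 8.59). Of 22 growth factors compared (27 listed), 9 were higher in T127 and 4 in T22. Fgf7, which acts on epithelial cells, was 6.15-fold (5.18 to 7.31) and Vegfa, the main vessel growth factor gene, 4.27-fold (3.62 to 5.05) higher.

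Spp1 was 52.5-fold (48.6 to 56.7) higher in T127, at 6068, 7900.5, 3824 and 3350 CPM in the T127 pools and 128, 130, 87.6 and 63.4 CPM in the T22 pools. It was not particular to i_CAF: all other cells together held 3612 to 4554 CPM in the T127 pools and 97.5 to 111 CPM in the T22 pools. A Spp1 UMI was found in 68.4% of T127 and 25.1% of T22 i_CAF cells. Its UMIs were uneven, with 48.0% in 5 of the 95 T127 cells and 72.1% in 15 of the 291 T22 cells. Granzyme genes, which encode proteases of cytotoxic lymphocytes, were also measured in T127 i_CAF. Gzme was at 137, 399.9, 236 and 219 CPM in the T127 pools and without a UMI in T22, at least 582-fold, but 11 of the 95 cells held its UMIs and 5 of them 82.1%. Ccl5, a T cell chemokine gene, was at 289.6 against 2.68 CPM, with 94.8% of its T127 UMIs in 5 cells and pools from 1.91 to 984 CPM. The log2 ratio of Ccl5 in T22 over T127 was -6.30, and -4.60 without T127 pool 4. The 12 genes of T, NK and B cells summed to 17.6 CPM in T127 i_CAF, and 7 of them were at 0.

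**Figure D4:**
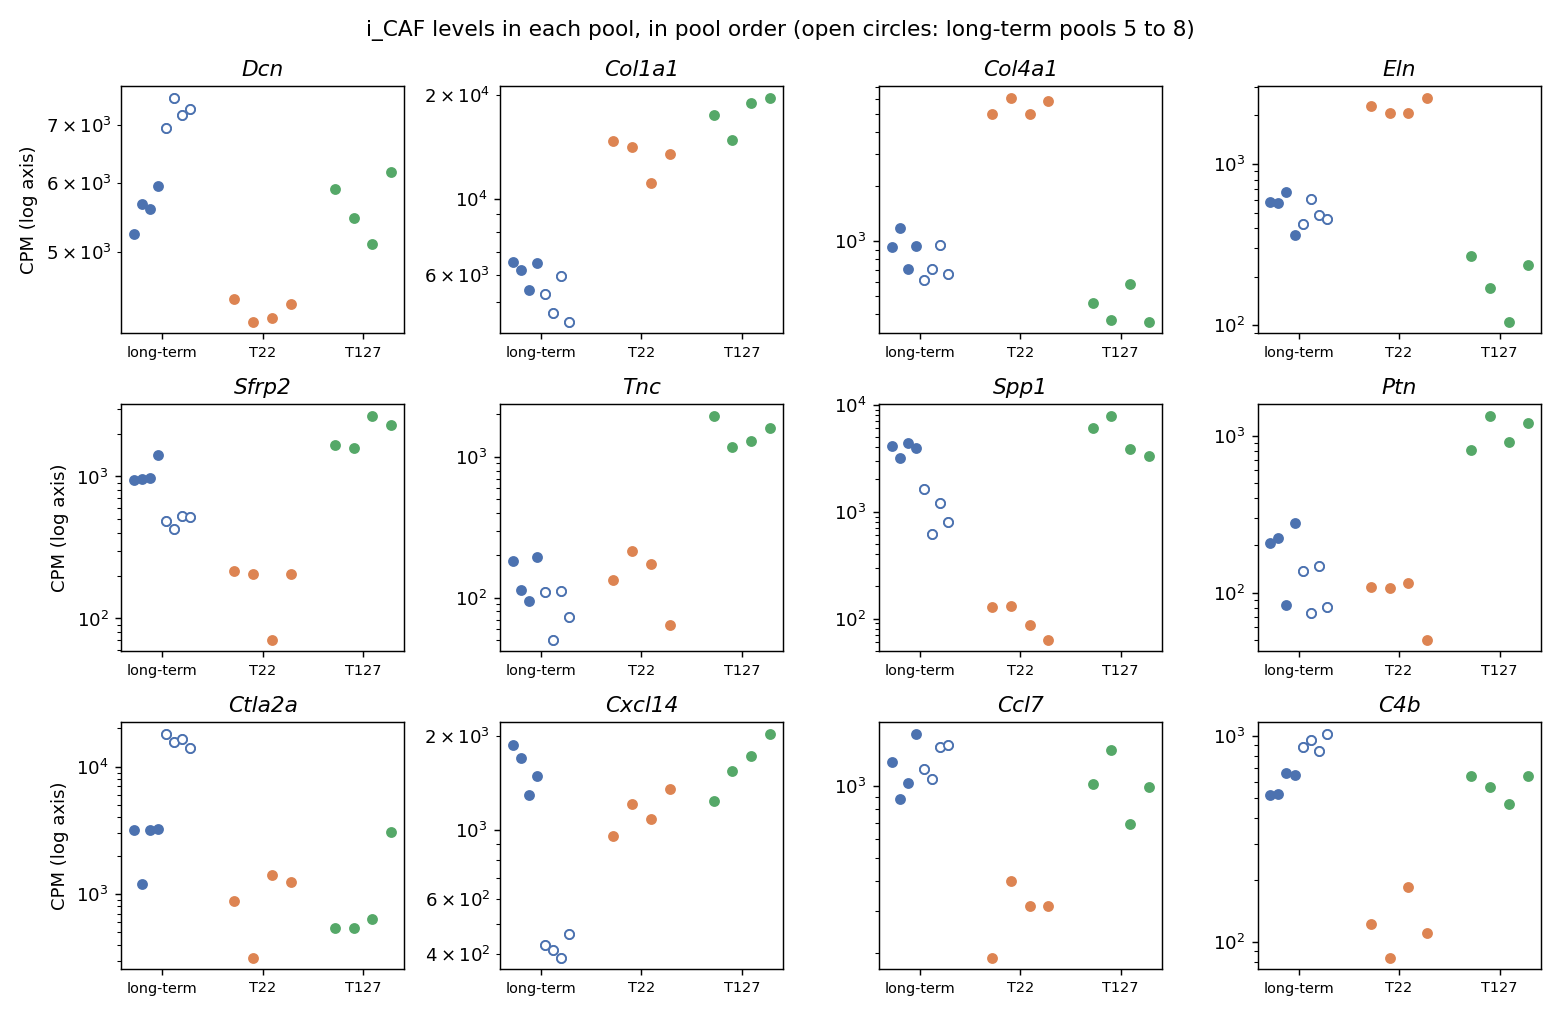
Level of 12 genes in i_CAF of each pool (CPM, log axes that differ between panels), each point 1 pool in pool order, with open circles for long-term pools 5 to 8. Col4a1 and Eln were higher in all 4 T22 pools than in all 4 T127 pools, Sfrp2, Tnc, Spp1, Ptn, Ccl7 and C4b were lower, and Ctla2a, Cxcl14, Spp1, Sfrp2, C4b and Dcn separate the 2 sets of long-term pools.

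Long-term i_CAF came from tumors of both lines, grown alone or together and treated longer, so strain, setting, duration and library cannot be told apart in the next comparisons. Against T22, 322 of 6414 genes (5.02%) were higher and 592 (9.23%) lower in the long-term group, with a median log2 ratio of -0.22. Against T127, 294 of 6219 (4.73%) were higher and 419 (6.74%) lower, with a median of -0.16. Of the resident fibroblast genes, 10 of 13 compared (14 listed) were higher in the long-term group and 1 lower against T22 (median 1.36), and 6 of 13 were higher and none lower against T127 (0.82). Pi16 was at 814 CPM against 266 and 227, higher in all 32 pairs of pools in each comparison. Clec3b was at 1795 CPM against 417 and 705, with 869 to 1394 CPM in long-term pools 1 to 4 and 1656 to 2691 in pools 5 to 8, and pool 1 lay below T127 pool 2 at 913 CPM. Ly6a, the gene of the stem cell antigen Sca-1, was at 3702 against 730 and 2374 CPM. Ctla2a was 10.7-fold (10.4 to 10.9) and 9.19-fold (8.81 to 9.59) higher over all pools, but the long-term pools divide into the sets given above. Within pools 1 to 4 it was at 3158, 1198, 3184 and 3228 CPM, against 316 to 1398 CPM in the T22 pools and 540 to 3086 CPM in the T127 pools, which overlap. Without T127 pool 4 the log2 ratio to T127 was 4.18 instead of 3.20.

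Of the 17 collagens, 12 were lower in the long-term group than in T22 and 4 were lower than in T127, with none higher by over 2-fold and 13 within 2-fold of T127. Col1a1 was 2.41-fold (2.38 to 2.43) lower than in T22 and 3.21-fold (3.17 to 3.26) lower than in T127. Col4a1, at 807 CPM, lay between T127 (451) and T22 (5501). Col11a1 was at 103 CPM against 1391 in T22, and Tnc at 113 CPM against 1510.3 in T127.

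Chemokine, complement and interferon-stimulated genes were counted in the same comparisons. Against T22, 9 of 17 chemokines compared were higher and 2 lower, 8 of 12 complement genes higher and 1 lower, and 10 of 14 interferon-stimulated genes higher and 1 lower. Against T127 the counts were 3 and 3 of 18 chemokines, 2 and 1 of 13 complement genes, and 2 and 0 of 15 interferon-stimulated genes. The difference between the comparisons, which share the long-term cells, was not tested. The macrophage genes moved with the first comparison, since they summed to 1812 CPM in long-term i_CAF and 419 in T22, and their part in these counts was not tested. Without the sub-cluster led by macrophage genes Ccl4 was at 10.4 instead of 78.8 CPM in the long-term group and C1qa at 53.8 instead of 282, while C4b was at 796, Cxcl10 at 156 and Ifit1 at 96.6 CPM. C4b was at 786 CPM in the long-term group, 126.8 in T22 and 573.5 in T127. Ifit1, an interferon-induced antiviral gene, was at 95.3, 9.73 and 78.9 CPM, with 56.2 to 146 CPM over the long-term pools and 14.97 to 155 CPM over the T127 pools. It was lower in T22 outside i_CAF too, at 9.74 CPM in endothelial cells against 92.9 CPM in the long-term group.

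Some of the highest differences were shared with other cells or rested on few cells. Hbb-bs, a beta globin gene of red blood cells, was at 1545 CPM in long-term i_CAF and without a UMI in T22 i_CAF, at least 3654-fold. A UMI of it was found in 99.2% of long-term i_CAF cells, and the 20 other long-term clusters of at least 50 cells held 873 to 7230 CPM, so it was not particular to these cells. Cd74 and H2-Aa, genes of MHC class II antigen presentation, were at 573 and 409 CPM in the long-term group, 110.4 and 81.8 CPM in T22 and 32.7 and 13.5 CPM in T127. Without the sub-cluster led by macrophage genes Cd74 was at 185, 40.8 and 1.69 CPM and H2-Aa at 69.1, 28.6 and 1.69 CPM. The log2 ratios of the long-term group over T22 were 2.37 for Cd74 and 2.31 for H2-Aa, and 3.40 and 3.34 without T22 pool 1. Over T127 they were 4.09 and 4.82, and 7.52 and 7.03 without T127 pool 3. Slpi, a protease inhibitor gene, was at 879 CPM against 8.03 in T22, and 37 cells held 92.7% of its long-term UMIs.

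Within i_CAF, 9 sub-clusters of 40 to 211 cells were found with the genes of all 1112 cells. They are named by their leading genes, which the clustering used, and their sizes between groups are not a result because genes that differ between the groups also define them. The largest, of 211 cells, was led by Cd79b, known as a B cell receptor gene, at 151 CPM and in 48.8% of its cells, Lamc3, a laminin chain gene, and Tnmd at 547 CPM, with Col4a1 at 7999 CPM, and 165 of its cells came from T22. The 12 genes of T, NK and B cells summed to 105 CPM in T22 i_CAF, of which Cd79b made up 81.9 CPM. A sub-cluster of 200 cells was led by the B cell chemokine gene Cxcl13 at 355 CPM, with a UMI in 18.5% of its cells, and the lipid carrier gene Fabp4 at 756 CPM, held Ctla2a at 22710 CPM, and had the highest Il6 (214 CPM) and Dcn (9992 CPM). In the long-term group 37 cells held 97.7% of the Cxcl13 UMIs. One of 190 cells carried the resident fibroblast genes Pi16 at 1951 CPM, Dpp4 at 564 and Cd34 at 987. One of 170 cells held Spp1 at 12280 CPM, found in 79.4% of its cells, and Cxcl10 at 633 CPM. Its leading genes by ratio were Gzmb, Grem1, a BMP antagonist gene, Gzmc, Gzme and Ccl5 at 1980 CPM, but a UMI was found in 4.12% of its cells for Gzmb, 12.9% for Gzmc, 5.29% for Gzme, 27.6% for Ccl5 and 32.9% for Grem1.

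A sub-cluster of 99 cells was led by Thbs4, a thrombospondin gene, at 2136 CPM and Fmod, which encodes fibromodulin, at 245 CPM. Another of 99 cells held low levels of the keratin gene Krt8 (81.4 CPM) and the protease gene Klk8 (153 CPM), which were at 1412 and 1384 CPM in Malign_0 of T127. A Krt8 UMI was found in 13.1% of its cells against 7.799% of the other i_CAF cells, and a Klk8 UMI in 12.1% against 6.22%, so that its leading genes were held by few of its cells. One of 61 cells was led by Mki67 at 504 CPM and other cell cycle genes and held cells of all 3 groups. One of 42 cells, all long-term, was led by Pnoc at 553 CPM, which had no UMI in the other i_CAF cells, Clu at 4066 CPM, Slpi at 10540 and the acute phase gene Saa3 at 5454 CPM. The last, of 40 cells, was led by macrophage genes such as C1qa at 3113 CPM and Lyz2 at 3449 CPM, while its Dcn, at 4478 CPM, was within the range of the others. Its median of 25526 UMIs per cell was the highest of the 9, and whether these are doublets was not tested.

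**Figure D5:**
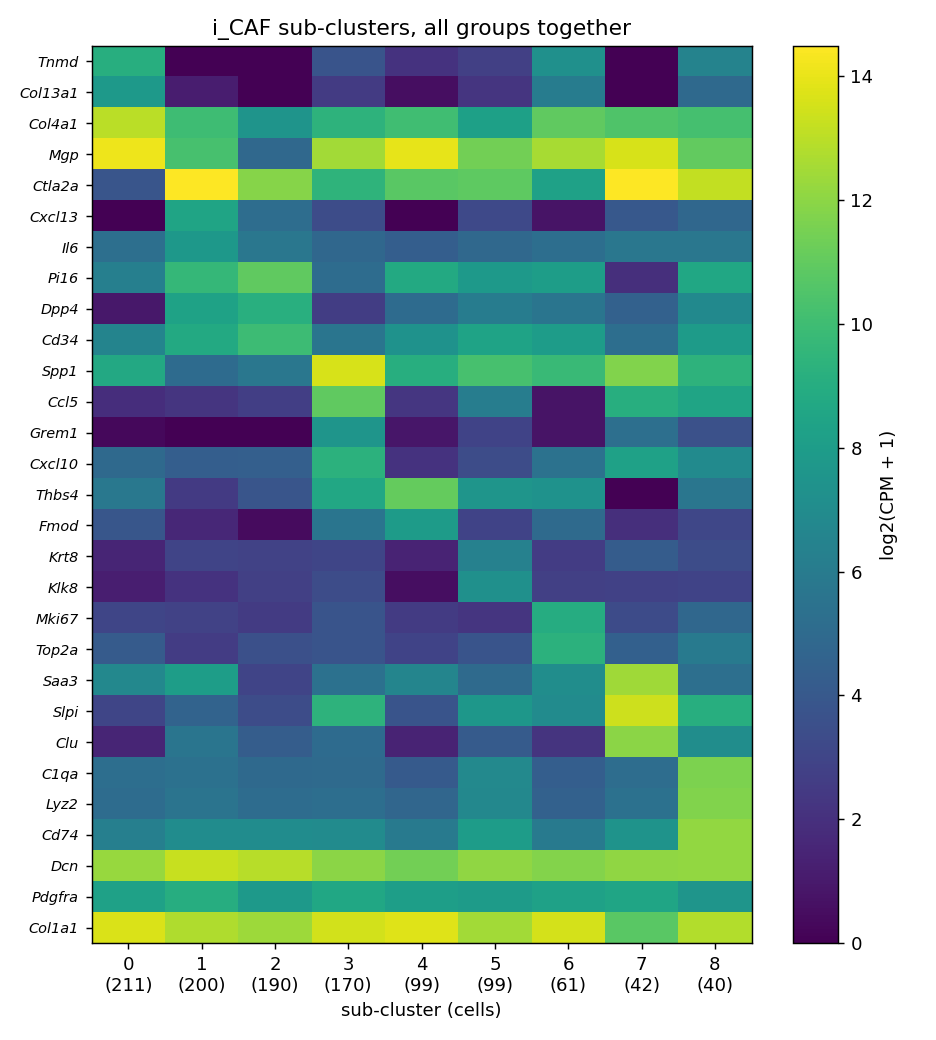
Level of leading and marker genes (rows, log2 of CPM + 1 by color) in the 9 sub-clusters of i_CAF (columns, with their number of cells), all groups together. Leading genes differ between sub-clusters, such as Pi16 in sub-cluster 2, Spp1 in 3, Mki67 in 6 and C1qa in 8, while Dcn, Pdgfra and Col1a1 are present in all 9.

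Dcn was at 2754 CPM or more in each of the 9 sub-clusters, Pdgfra at 186 CPM or more and Col1a1 at 1745 CPM or more. Pdpn varied more, from 53.1 CPM in the sub-cluster of 211 cells to 384 CPM in the one of 190 cells. Over the 62 clusters of all groups, which share libraries and free RNA, the genes whose log2 levels followed Dcn most closely were Fbln7 (Pearson r 0.90), Il33 (0.89), Osr1 (0.87), Duoxa1 (0.86) and Bdnf (0.85). Those closest to Pdgfra were Prrx2 (0.91), Pcolce2 (0.91), Tspan11 (0.91), Ssc5d (0.90) and Arsj (0.89).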

How the data were processed

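Single-cell RNA-seq libraries of 16 pools of dissociated tumors were analysed. The authors deposited, for each pool, a table of UMI counts per gene and cell, made with Cell Ranger 6.0.0 on GRCm38 as the submitters' processing notes name them, and a table with a cluster name per cell, after doublets had been removed with Scrublet. The deposited counts are not normalized, cover 32285 genes and include intronic reads.

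Cells were joined to their cluster by barcode. Where long-term pools shared a 16-base barcode, the copy with most UMIs was kept. Counts were summed per cluster, group and pool and scaled to CPM. Genes of at least 20 CPM in either cluster were compared on log2(CPM + 1), with a pseudocount of 1 CPM, and called past 2-fold. Intervals are exact at 95% (Poisson, Clopper-Pearson, conditional binomial) and cover counting error only. A fold against no UMI uses a floor of 3 counts over the cluster. Pools are compared where they hold at least 10 cells of each cluster. Shares of cells with a Dcn or Pdgfra UMI used cells thinned to 3000 UMIs where not said otherwise. Other shares, such as those within sub-clusters, used all cells without thinning, so they also depend on depth.

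The members and the 28 gene lists were chosen with earlier results of these data known, and 2 list genes were not in the tables. Genes are named where they are list members of high level, among the 15 largest differences each way of at least 50 CPM that passed 2-fold in every pool, among the 20 highest, or among the 5 most like Dcn or Pdgfra; Hbb-bs, Slpi, Gzme and the genes of single sub-clusters were also named after their values were seen. Sub-clusters used 2000 variable genes, 20 principal components, 15 neighbours and Leiden resolution 0.6. The calculations were tested on simulated data. Alternatives leaving out sub-clusters, centring the ratios and splitting the long-term pools were added after seeing the data. Sums and intervals were computed in python 3.11.15 (scipy 1.17.1, pandas 2.3.3, numpy 2.4.6), sub-clusters with scanpy 1.11.5 (leidenalg 0.10.2, igraph 0.11.9) and plots with matplotlib 3.10.9.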

Additional observations from a re-analysis of the deposited data

Results flagged for a closer look

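In i_CAF, 263 series of pool values were examined, each of 1 named gene or of the i_CAF share in 1 group. Of these, 24 had 1 pool far from the others by Dixon's criterion. The criterion's rate of about 1 in 20 holds for independent, normally distributed values. Because the genes were selected and share pools, the count cannot be set against that rate. Among immune genes of T127, pool 3 held Cd74 at 114.9 CPM and H2-Aa at 44.04 CPM, against at most 4.62 and 6.42 CPM in the other pools, and pool 2 held Gzmb at 575.3 CPM against at most 36.4. The same T127 pool 3 held Mki67 at 212.6 CPM and, on the low side, Tgfbr2 at 691.3 CPM. In T127 pool 4 Ctla2a was at 3086 CPM and S100a4 at 1130 CPM, and in pool 1 Osr1 was at 125 CPM. The T127 pools held only 17 to 28 i_CAF cells, so few cells can move them. Over all T127 pools, single cells held 42 of 63 Cd74 UMIs, 151 of 305 Gzmb UMIs and 755 of 2196 Ctla2a UMIs.

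In T22, pool 4 stood apart with Pdpn at 163.2 CPM and Sfrp1 at 271.2 CPM, both high, and Ptn at 50.16 CPM, low. Pool 3 held Lbp at 102.7 CPM, high, and Sfrp2 at 70.89 CPM, low. Pool 1 held Ifi27l2a at 415.9 CPM, high.

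In the long-term group, pool 2 stood high for Cck at 21.18 CPM, Col11a1 at 309.9 CPM and Wfdc18 at 197.3 CPM. Pool 5 stood high for Hmga2 at 71.23 CPM and Krt8 at 51.2 CPM, both genes of malignant cells. Pool 3 stood high for Slpi at 2451 CPM and Vim at 5510 CPM, pool 4 for Cxcl5 at 205.6 CPM and Igf1 at 733.3 CPM, and pool 1 for Lrrc15 at 93.12 CPM.

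Of 81 genes compared, Ramp1, a subunit of the CGRP receptor, was the one whose difference between i_CAF and my_CAF had one direction in every long-term pool and the opposite one in every T22 pool. Il6 and Cxcl10 also had opposite directions in the summed levels, but 1 of their 4 T22 pools went the other way. Its log2 ratio was -3.465 in the long-term group, lower in i_CAF in every pool compared, and 0.5179 in T22, higher in every pool. That difference between groups was not tested.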

How the results depend on the processing

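No paired analysis was possible between the groups because their replicate numbers name different pools. The clusters of 1 pool are paired, and i_CAF and my_CAF were compared pool by pool, as directions without a test, since both names come from 1 clustering. The number of genes past 2-fold depended on the minimum level, and fewer or more genes are compared by construction. With no minimum beyond 3 UMIs in both clusters together, the genes higher and lower in i_CAF numbered long-term my_CAF 2616 and 1734, long-term Malign_0 2723 and 1717, long-term Malign_1 2745 and 1543, long-term Malign_2 3064 and 2423, long-term Malign_3 3170 and 2666, T22 my_CAF 1741 and 1762, T22 Malign_2 2831 and 2611, T22 Malign_3 3068 and 3072, T127 my_CAF 4501 and 1842, T127 Malign_0 2609 and 2732 and T127 Malign_1 2549 and 2431, and between groups T22 against T127 1477 and 1041, long-term against T22 858 and 1312 and long-term against T127 1003 and 1078. With a minimum of 100 CPM they numbered long-term my_CAF 327 and 285, long-term Malign_0 430 and 386, long-term Malign_1 421 and 355, long-term Malign_2 524 and 489, long-term Malign_3 560 and 515, T22 my_CAF 329 and 249, T22 Malign_2 569 and 501, T22 Malign_3 640 and 541, T127 my_CAF 375 and 341, T127 Malign_0 472 and 536 and T127 Malign_1 432 and 479, and between groups T22 against T127 173 and 158, long-term against T22 144 and 160 and long-term against T127 132 and 119. With a pseudocount of 10 CPM, 370 genes were lower in the long-term group than in T22 and 211 lower than in T127. With ratios centred on their median, 1004 genes were lower than in T127 Malign_0. Leaving out 1 pool at a time, the higher and lower genes ranged as follows: long-term my_CAF 848 to 897 and 855 to 922, long-term Malign_0 1099 to 1131 and 981 to 1030, long-term Malign_1 1102 to 1126 and 895 to 935, long-term Malign_2 1477 to 1492 and 1276 to 1318, long-term Malign_3 1562 to 1583 and 1360 to 1398, T22 my_CAF 761 to 796 and 770 to 811, T22 Malign_2 1521 to 1549 and 1425 to 1453, T22 Malign_3 1647 to 1674 and 1654 to 1694, T127 my_CAF 1336 to 1671 and 1213 to 1541, T127 Malign_0 1065 to 1106 and 1552 to 1666, T127 Malign_1 1036 to 1070 and 1403 to 1459, T22 against T127 504 to 555 and 372 to 411, long-term against T22 313 to 333 and 576 to 624 and long-term against T127 288 to 318 and 398 to 486. The share of i_CAF ranged from 2.75 to 2.88% (long-term), 1.86 to 1.97% (T22) and 1.14 to 1.27% (T127). It was 3.85%, 2.21% and 3.04% of non-malignant cells and 86.1%, 69.3% and 92.2% of i_CAF and my_CAF together, 3.18% in the long-term group with every barcode copy, and 2.23% in T22 over cells of at least 1000 genes. Counts stayed within 1.5 times without the top 5% of cells by UMIs, without cells holding a Ptprc, Pecam1 or Epcam UMI, without the sub-clusters led by macrophage or keratin genes, and with long-term pools 1 to 4 or 5 to 8 alone. Of the alternative values of named genes, counted with the unthinned marker shares, 4240 were labelled unchanged and 182 moved. A gene's ratio counted as unchanged within the standard deviation over pools, and a share within its counting interval. Leaving out 1 of several pools mostly moves a ratio by only a part of that deviation, so the count is no measure of stability. C1qa, not among the named genes, had its order between T22 and T127 turned, to 20.9 against 9.59 CPM, without the sub-cluster led by macrophage genes. C1qa is a leading gene of that sub-cluster, which held only 5 T22 and 4 T127 cells. Depth limits genes near 1 UMI per cluster, above all in T127, with 95 i_CAF and 8 my_CAF cells.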

Other observations

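Genes of other lineages and single secreted genes gave values not described above. In long-term i_CAF the 13 genes of adipocytes, Schwann cells and muscle summed to 300.04 CPM, against 104 in T22 and 98.6 in T127. Their sum was highest, at 776.7 CPM, in the sub-cluster of 200 cells, where the lipid carrier gene Fabp4 was at 755.8 CPM. Whether cells of these other types were present was not tested. Ifi27l2a, an interferon-induced gene, was at 1336 CPM in the long-term group, 282 in T22 and 1196 in T127. Lbp, which encodes the lipopolysaccharide binding protein, was at 562, 77.9 and 588 CPM. Prg4, which encodes the lubricating proteoglycan lubricin, was at 875, 52.0 and 243 CPM. For these 3 genes T22 had the lowest level.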
